A study of Mus musculus with 6 samples.

Results

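miR-206 and miR-133b were examined in small RNA libraries of the mouse myoblast line C2C12, an established model of skeletal muscle precursors. Their rows were found by name in the table of each library, as those starting with mmu-miR-206- or mmu-miR-133b-, which gave 4 of the 49 listed mature miRNAs: mmu-miR-206-3p, mmu-miR-206-5p, mmu-miR-133b-3p and mmu-miR-133b-5p. Wild-type (WT) cells were compared with cells in which exon 3 of the myostatin gene had been targeted with CRISPR/Cas9 (MSTN-KO), with 3 libraries per group. The labels name no other allele or treatment for either group, and both were described as myoblasts kept in growth medium with serum. The knockout line is a single one, called C11 in the study, whereas the strain field of the labels reads C11 for all 6 libraries, WT included. Nothing in the labels says whether the 3 libraries of a group came from separate cultures, so the p-values measure the spread between these libraries, which may be technical. Myostatin mRNA and protein markers of myoblasts were not analysed here, and the group of each library rests on its title. Each direction given below is therefore that of the libraries titled MSTN-KO against those titled WT, and would turn round if the titles were exchanged. The study itself reports miR-206-3p as upregulated in MSTN-KO cells by sequencing and by quantitative PCR, which is opposite to the direction by title. This conflict was not particular to miR-206-3p. Each miRNA that the study names as upregulated with target genes, miR-1a-3p and miR-133a-3p among them, was lower by title. The downregulated one it names, miR-139-5p, was higher by title, with a log2 fold change of 2.18. Which direction holds for the cells was not tested here.

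A miRNA is cut from a hairpin precursor, and a mature miRNA can come from either arm of the hairpin (5p or 3p). One arm is usually loaded into the silencing complex, while the other, the passenger, is mostly degraded. The seed, bases 2 to 8 of the mature miRNA, does most of the pairing with target messenger RNAs. miR-206 and miR-133b belong to the muscle miRNAs, or myomiRs, which are switched on by myogenic factors such as MyoD and myogenin as myoblasts differentiate. miR-206 is known to promote differentiation, and the miR-133 family is known to act on proliferation and differentiation of muscle precursors. Myostatin, a secreted member of the TGF-β superfamily, restrains muscle growth.

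The mature sequences of the arms are shown first, from RefSeq (GRCm38.p6), because the seeds set which other muscle miRNAs the arms are compared with. All 4 names were matched. Seeds are in capitals, 5′ to 3′.

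miR-206-3p: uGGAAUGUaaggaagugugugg

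miR-206-5p: aCAUGCUUcuuuauauccucaua

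miR-133b-3p: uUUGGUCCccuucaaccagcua

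miR-133b-5p: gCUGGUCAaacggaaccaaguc

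The seeds differed among all 4. The 3p arms carry the seeds of better known relatives: miR-206-3p shares its seed with miR-1a-3p, and miR-133b-3p shares its seed with miR-133a-3p. The hairpins were added to show where each arm sits, with the mature arms in capitals. Mir206 is 73 bases long and Mir133b is 119 bases long.

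Mir206: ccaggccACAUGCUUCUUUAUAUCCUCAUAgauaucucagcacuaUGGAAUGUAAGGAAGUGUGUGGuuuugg

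Mir133b: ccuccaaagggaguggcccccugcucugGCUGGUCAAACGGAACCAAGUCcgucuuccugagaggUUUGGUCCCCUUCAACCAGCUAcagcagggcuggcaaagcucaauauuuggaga

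Both hairpins lie on the plus strand of chromosome 1 of GRCm38, Mir206 at 20679010 to 20679082 and Mir133b at 20682769 to 20682887, with 3686 bases between them. Their host is a long noncoding RNA, named Gm28653 by GENCODE and Lincmd1 by RefSeq, which is known as linc-MD1 and is made in differentiating myoblasts. In its spliced transcript of 3 exons, Gm28653-202, the whole Mir133b hairpin falls in exon 3, while Mir206 falls in the intron before that exon. The other annotated transcript, Gm28653-201, has a single exon that holds the whole Mir133b hairpin and 60 of the 73 bases of Mir206. Reads of the host itself were not analysed here.

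**Figure D1:**
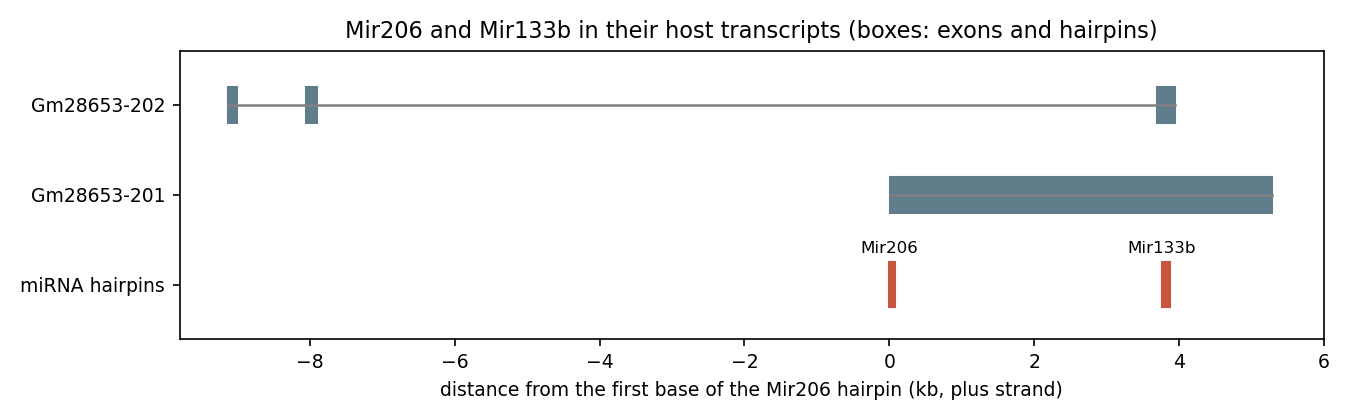
Map of the host transcripts (boxes are exons, lines are introns) and the hairpins, with the distance from the first base of the Mir206 hairpin in kb on the x axis. Mir206 lies in an intron of Gm28653-202 and Mir133b in its exon 3, with 3686 bases between the hairpins.

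The promoter window of Lincmd1, the host described above, was read as well. It covers 250 bases before and 50 after the annotated start (GRCm38.p6, chr1:20669632-20669931, plus strand). It was searched on both strands for the E-box CANNTG, to which MyoD and its relatives bind, for the E-box version CAGCTG, for the MEF2 consensus and for TATAAA. Matches to CAGCTG and to the MEF2 consensus are in capitals.

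Lincmd1 promoter: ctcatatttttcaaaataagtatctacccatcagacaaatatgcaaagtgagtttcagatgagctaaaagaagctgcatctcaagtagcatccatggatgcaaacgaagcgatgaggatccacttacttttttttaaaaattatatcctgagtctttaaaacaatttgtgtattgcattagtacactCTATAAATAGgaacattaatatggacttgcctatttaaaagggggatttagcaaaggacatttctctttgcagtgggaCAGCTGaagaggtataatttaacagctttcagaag

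The window held 2 matches to CANNTG, of which the one at bases 266 to 271 was CAGCTG. At least 1 CANNTG occurred in 72.3% of the 32851 promoter windows of the same length, and CAGCTG occurred in 16.3%. The MEF2 consensus had 1 match at bases 188 to 197, before the annotated start at base 251, and was present in 0.557% of all windows. The match to TATAAA at bases 189 to 194 lay inside the MEF2 match, and TATAAA occurred in 13.6% of windows. These are matches of letters and no measure of binding.

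Values are RPM, reads per 1000000 library reads. From the step of the RPM values, taken as 1 read, the totals of the 6 libraries were inferred as 5502214 to 11823489 reads. The 49 listed miRNAs took between 0.773% and 3.47% of these totals. Which reads the authors counted in them is not given in the sources used here. Each read stands for 1 whole miRNA, so RPM was compared between miRNAs with no correction for length. 3 reads, taken as the detection floor, corresponded to between 0.254 and 0.545 RPM in a library. All 4 arms were above 0 in all 6 libraries and passed the filter of 1 RPM in at least 1 library.

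All 4 arms were lower in the libraries titled MSTN-KO as deposited, by 1.05 to 2.11 on the log2(RPM + 1) scale. However, miR-206-5p and miR-133b-3p changed sign when libraries were scaled to the listed total. For miR-206 the 3p arm had the larger estimate, and for miR-133b the 5p arm did, though not with a pseudocount of 10. Each arm passed at an adjusted p-value under 0.05 and each had groups without overlap. The list gives this count little weight, because 71.4% of the 49 listed miRNAs were called lower by the same rule and 100% of them had groups without overlap in one direction or the other. The study screened 35 upregulated and 14 downregulated miRNAs by p-value and fold change on this same comparison. Here 35 were lower and 14 higher. If the list is that screen, low adjusted p-values were fixed by the selection and give no independent support. All 4 arms also passed the thresholds used in the study (unadjusted p-value under 0.05 and log2 fold change below -1), which 57.1% of the listed miRNAs did. The median log2 fold change was -1.35 for the 4 arms, -1.07 for all 49 miRNAs and -1.30 for the 35 lower ones. In these bulk libraries, fewer cells that make a miRNA and less of it per cell cannot be told apart.

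miR-206-3p, the arm that acts as the mature miR-206, was the most abundant listed miRNA in each library. It had 24649, 31551 and 18322 RPM in WT replicates 1, 2 and 3, and 6143, 10766 and 8528 RPM in MSTN-KO replicates 1, 2 and 3. The highest MSTN-KO library lay well under the lowest WT library, and within each group the highest library had over 1.7 times the RPM of the lowest (1.72 in WT, 1.75 in MSTN-KO). The group means were 24841 ± 6617 RPM and 8479 ± 2312 RPM (SD, n = 3), so the MSTN-KO mean was 34.1% of the WT mean. On the log2 scale this was -1.55 with an SE of 0.28 (adjusted p = 0.000598 in limma). With 33801 to 216625 reads per library, counting error was small beside the spread between replicates.

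miR-206-5p, the passenger arm of the same hairpin, was present at far lower levels. It had 12.2, 13.3 and 10.4 RPM in WT replicates 1, 2 and 3 (79, 91 and 123 reads), and 4.0, 5.97 and 5.86 RPM in the MSTN-KO replicates (22, 57 and 51 reads). The WT libraries lay close together, and the lowest of them was above all MSTN-KO libraries. The means were 11.9 ± 1.44 and 5.28 ± 1.11 RPM (SD, n = 3), a fall of -1.05 on the log2 scale with an SE of 0.21 (adjusted p = 0.00113 in limma).

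miR-133b-3p, the main arm of the neighbouring hairpin, ranked between 6 and 9 of the 49 listed miRNAs in each library. It had 129, 211 and 158 RPM in WT replicates 1, 2 and 3 and 48.7, 84.6 and 92.5 RPM in the MSTN-KO replicates. All WT libraries were above all MSTN-KO libraries, and MSTN-KO replicate 1 was far below the others of its group. The means were 166 ± 41.2 and 75.3 ± 23.4 RPM (SD, n = 3), which gave a log2 difference of -1.15 with an SE of 0.29 (adjusted p = 0.00365 in limma). Reads of miR-133b-3p and miR-133a-3p are nearly identical in sequence, and the rule by which the authors' counting divided them is not given in the sources used here, so both values are uncertain.

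miR-133b-5p, the passenger arm of Mir133b, had the largest fall of the 4 on the log2(RPM + 1) scale, but with a pseudocount of 10 its log2 fold change of -0.82 was smaller than those of miR-206-3p (-1.55) and miR-133b-3p (-1.06). It had 8.02, 13.8 and 11.6 RPM in the WT libraries (52, 95 and 137 reads) and 0.727, 2.83 and 2.18 RPM in the MSTN-KO libraries (4, 27 and 19 reads). The lowest WT library had over 2 times the RPM of the highest MSTN-KO library, and the value in MSTN-KO replicate 1 rested on 4 reads. The means were 11.1 ± 2.94 and 1.91 ± 1.08 RPM (SD, n = 3), so the MSTN-KO mean was 17.2% of the WT mean. On the log2 scale this was -2.11 with an SE of 0.32 (adjusted p = 0.000271 in limma), and -1.77 without MSTN-KO replicate 1. This arm kept its sign and an adjusted p-value under 0.05 under all 4 rescalings of the listed values, which the other 3 arms did not. Of these rescalings, quantile normalization could not test miR-206-3p, whose top rank in each library fixed its fold change at 0. However, miR-206-3p also missed the threshold under median-of-ratios scaling (limma adjusted p = 0.162). Scaling to the listed total (limma adjusted p = 0.683) could hardly test it, because miR-206-3p itself made up 79.5% to 90.8% of that total. Scaled to the listed total without the 4 arms, it passed at -0.88 (limma adjusted p = 0.0102).

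**Figure D2:**
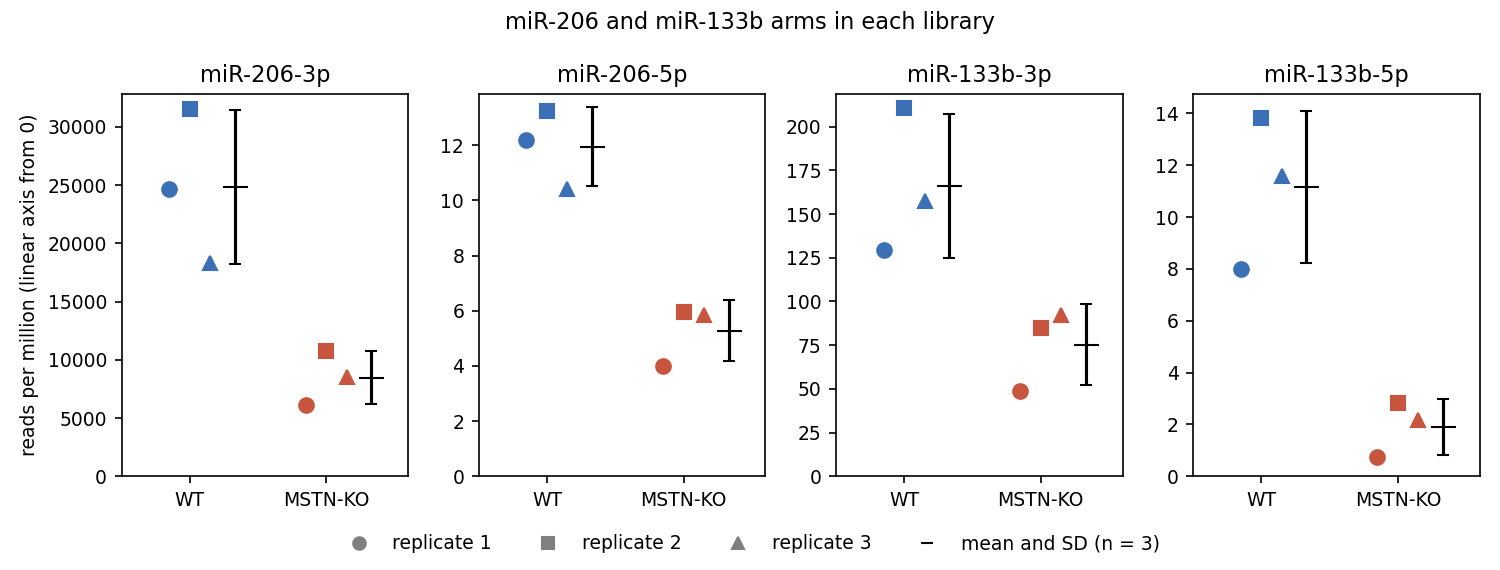
RPM of each arm (linear y axis from 0) in the 3 WT and 3 MSTN-KO libraries, with the mean and SD of each group beside the points. As deposited, each MSTN-KO library lies below each WT library for all 4 arms, but miR-206-5p and miR-133b-3p change sign when scaled to the listed total. MSTN-KO replicate 1 is the lowest library for each arm.

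The falls depended on what the libraries were scaled to. The median log2 fold change of all 49 miRNAs, -1.07 as deposited, was close to the falls of miR-206-5p and miR-133b-3p. Median-of-ratios scaling, scaling to the listed total, scaling to the listed total without the 4 arms and quantile normalization moved the fold changes of the listed miRNAs up by a median of 0.96, 1.21, 0.58 and 0.81. With 71.4% of the listed miRNAs called lower as deposited, scaling to this list was bound to move fold changes up. For the listed total the size of the shift followed mainly miR-206-3p, with a median of 1.21 against 0.58 when the 4 arms were left out. The rescalings therefore cannot tell which scale is right. Scaled to the listed total, miR-206-5p had a log2 fold change of 0.21 and miR-133b-3p one of 0.27, neither past the adjusted threshold (limma adjusted p = 0.509 and 0.484). miR-206-3p makes up most of that total. When the 4 arms were left out of it, miR-206-3p stayed lower at -0.88 (limma adjusted p = 0.0102), miR-206-5p at -0.46 (0.0487) and miR-133b-5p at -1.59 (0.00168), while miR-133b-3p at -0.48 no longer passed (0.092).

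**Figure D3:**
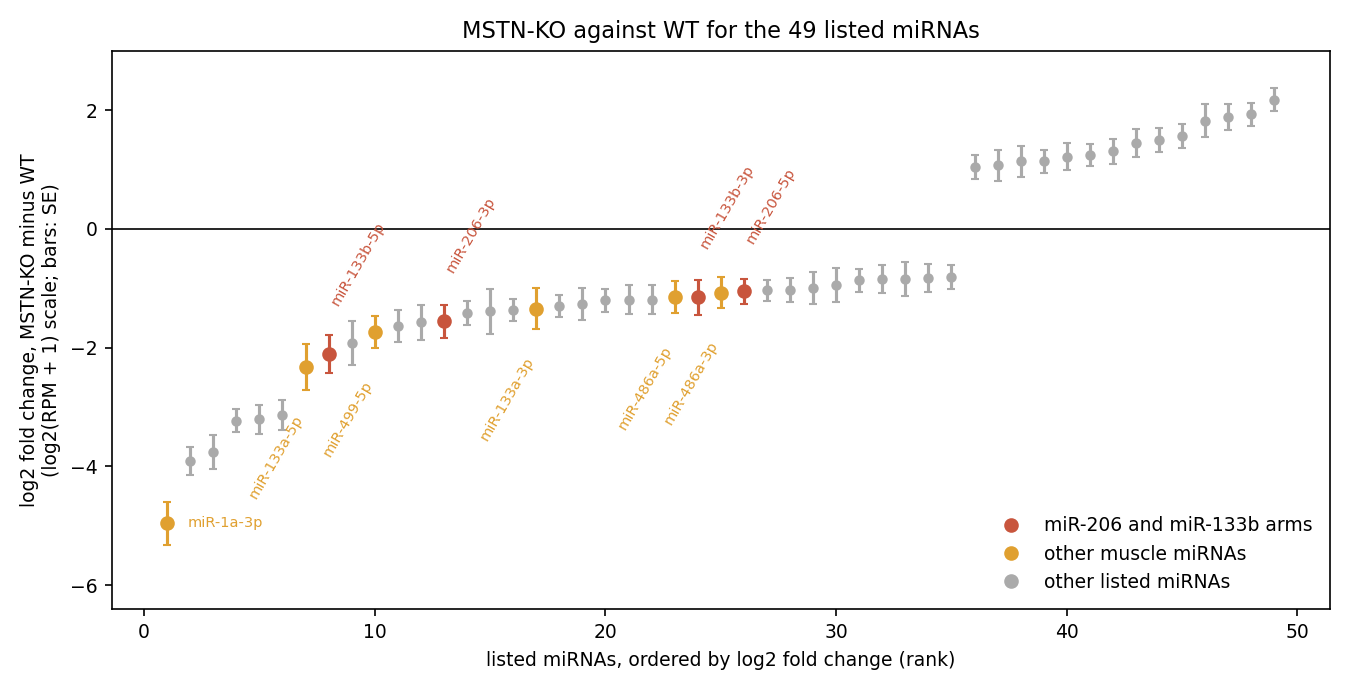
Log2 fold changes (MSTN-KO minus WT, log2(RPM + 1) scale, bars are SE) of the 49 listed miRNAs in order of size, as deposited. The arms of miR-206 and miR-133b lie between -2.11 and -1.05, among the 35 lower miRNAs, with miR-1a-3p at -4.96 as the lowest. Scaled to the listed total, miR-206-5p and miR-133b-3p change sign.

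Ratios between 2 miRNAs of 1 library do not depend on the library total, and 5 of them were compared between groups. With 3 against 3 libraries the exact two-sided permutation test cannot give a p below 0.1, and no adjusted value over the 5 ratios was under 0.25.

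The share of the 5p arm in the reads of a hairpin was compared first. For miR-133b, the 5p arm took 5.84% of the reads of both arms (95% Wilson interval 4.48 to 7.57), 6.16% (5.07 to 7.48) and 6.84% (5.82 to 8.03) in WT replicates 1, 2 and 3. In the MSTN-KO replicates it took 1.47% (0.573 to 3.72), 3.23% (2.23 to 4.66) and 2.30% (1.48 to 3.57). The shares of the groups did not overlap, and of the 9 pairs of a WT and an MSTN-KO library, the intervals of 1 pair overlapped. The intervals do not cover the uncertain division of reads between miR-133b-3p and miR-133a-3p, which enters each of these shares. The means were 6.28% ± 0.514 and 2.34% ± 0.882 (SD, n = 3). On the log2 scale the 5p to 3p ratio differed by -1.56 (exact permutation p = 0.1, adjusted 0.25), and by -1.25 without MSTN-KO replicate 1. In reads, 1 copy of the 5p arm stood beside 13.6 to 16.1 copies of the 3p arm in the WT libraries and beside 29.9 to 67 copies in the MSTN-KO libraries.

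For miR-206, the 5p arm was a trace product in both groups. It took 0.0494%, 0.0420% and 0.0567% of the reads of both arms in WT replicates 1, 2 and 3, and 0.0650%, 0.0554% and 0.0686% in the MSTN-KO replicates. The groups overlapped, since MSTN-KO replicate 2 lay under WT replicate 3, and the Wilson intervals overlapped in 8 of 9 pairs. The log2 5p to 3p ratio differed by 0.36 (exact permutation p = 0.2, adjusted 0.25), the opposite sign to that of miR-133b. A difference between the hairpins in this respect was not tested. In reads, 1 copy of miR-206-5p stood beside 1456 to 2380 copies of miR-206-3p.

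**Figure D4:**
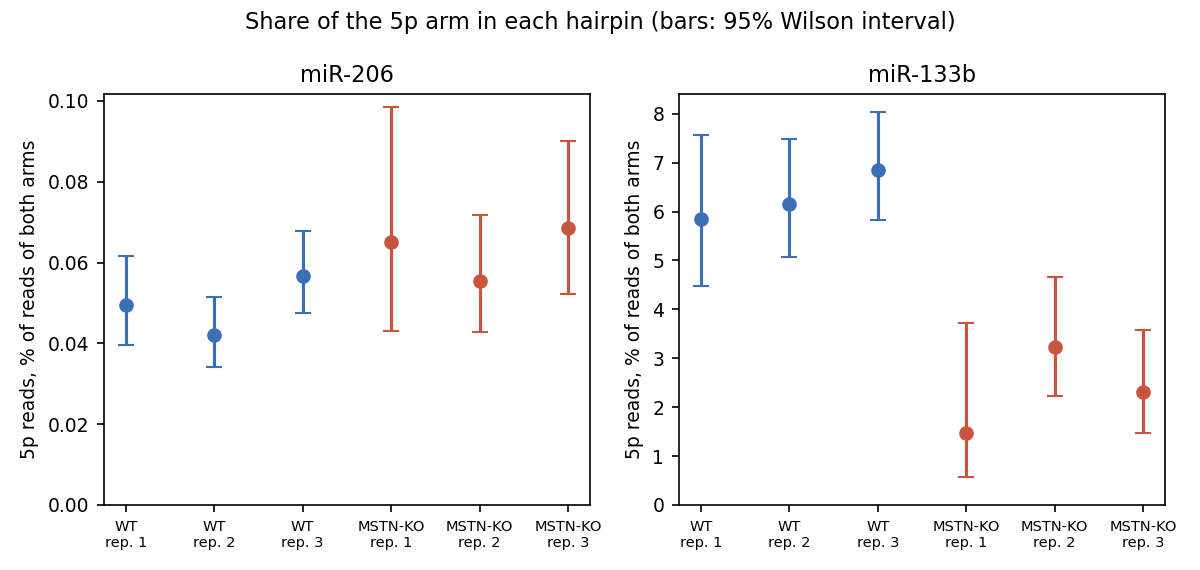
Reads of the 5p arm as a percent of the reads of both arms of each hairpin (y axes from 0, different scales) in each library, with 95% Wilson intervals as bars. For miR-133b the WT libraries lie at 5.84% to 6.84% and the MSTN-KO libraries at 1.47% to 3.23%, while for miR-206 the groups overlap. The intervals do not cover the uncertain division of reads between miR-133b-3p and miR-133a-3p.

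The main arms of the neighbouring hairpins were then set against each other. miR-133b-3p amounted to 0.525%, 0.668% and 0.861% of the RPM of miR-206-3p in WT replicates 1, 2 and 3, and to 0.793%, 0.786% and 1.08% in the MSTN-KO replicates. The groups overlapped, and the log2 ratio differed by 0.39 (exact permutation p = 0.3, adjusted 0.3). No difference in the falls of these arms was detectable with these libraries.

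Each main arm was also compared with its relative of the same seed, which is made from other loci. miR-1a-3p, a muscle miRNA of skeletal and heart muscle, amounted to 0.770%, 0.776% and 0.922% of miR-206-3p in WT replicates 1, 2 and 3 and to 0.0473%, 0.10% and 0.0552% in the MSTN-KO replicates. The groups were far apart, with a log2 difference of -3.68 (exact permutation p = 0.1, adjusted 0.25). As deposited, the log2 fold change of miR-1a-3p was -4.96, against -1.55 for miR-206-3p. miR-133a-3p amounted to 52.6%, 66.0% and 58.7% of miR-133b-3p in the WT libraries and to 47.0%, 56.1% and 50.5% in the MSTN-KO libraries. These groups overlapped, with a log2 difference of -0.20 (exact permutation p = 0.2, adjusted 0.25), and the near identity of their sequences limits what this ratio can show.

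The list of other muscle miRNAs covered 9 miRNAs, among them relatives of miR-206 and miR-133b by seed. Of their arms, 6 were listed here: miR-1a-3p, miR-133a-3p, miR-133a-5p, miR-486a-3p, miR-486a-5p and miR-499-5p. All 6 were lower as deposited and passed at an adjusted p-value under 0.05 (limma), against 71.4% of all listed miRNAs. Their median log2 fold change was -1.54 and their range ran from -4.96 to -1.07. The 5p arm of the miR-133a hairpins, miR-133a-5p, was also reduced to few reads, with 53, 42 and 23 reads in the WT libraries and 0, 5 and 0 in the MSTN-KO libraries. The floor of 3 reads for these values of 0 was 0.545 RPM in the first MSTN-KO library and 0.344 RPM in the third. In the same order, miR-133a-3p had 441, 954 and 1094 reads in the WT libraries and 126, 453 and 407 in the MSTN-KO libraries. A lower 5p share in the MSTN-KO libraries was thus not particular to miR-133b, though the difference for miR-133a was not tested.

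miR-206-3p dominated the listed RPM. It took 90.6%, 90.8% and 87.0% of it in WT replicates 1, 2 and 3, and 79.5%, 85.5% and 82.7% in the MSTN-KO replicates. With the other 3 arms the share was 90.2% ± 1.98 in WT and 83.4% ± 3.04 in MSTN-KO libraries (SD, n = 3), a difference of -6.80 percentage points (exact two-sided permutation test, p = 0.1, the smallest the design allows). The share of miR-206-5p was 0.0441% ± 0.00566 in WT and 0.0520% ± 0.00467 in MSTN-KO, that of miR-133b-3p 0.610% ± 0.137 and 0.733% ± 0.143, and that of miR-133b-5p 0.0414% ± 0.0129 and 0.0177% ± 0.00719 (SD, n = 3). These shares are of 49 selected miRNAs and not of all miRNAs of the cells. Of the listed RPM without miR-206-3p, miR-133b-3p took 5.80% ± 0.775 in WT and 4.30% ± 1.09 in MSTN-KO libraries (SD, n = 3), with overlapping libraries. By this measure miR-206-5p took 0.423% ± 0.0474 and 0.302% ± 0.0432 and miR-133b-5p 0.390% ± 0.0672 and 0.108% ± 0.0560 (SD, n = 3), both without overlap, so the mean share of miR-206-5p was lower in MSTN-KO here and higher, with overlapping libraries, when miR-206-3p was counted in the sum.

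Replicates of a group differed in a way that all 4 arms shared in some libraries and not in others. In WT replicate 2, MSTN-KO replicate 2 and MSTN-KO replicate 3 all 4 arms were above the mean of their group, and in MSTN-KO replicate 1 all 4 were below it, by 0.31 to 0.68 on the log2(RPM + 1) scale. Of the 45 other listed miRNAs, 31 were above the group mean in WT replicate 2, 27 in MSTN-KO replicate 2 and 23 in MSTN-KO replicate 3, and 24 were below it in MSTN-KO replicate 1, which was also the library with the fewest reads. The part of depth in these low values was not tested. In WT replicate 1 the arms of miR-133b were below the mean and those of miR-206 just above it, while 36 of the 45 other miRNAs were below it. In WT replicate 3 miR-133b-5p was above the mean and the other 3 arms below it, with 23 of the 45 other miRNAs below it.

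Deviations from the group means correlated most strongly between arms of the same hairpin, with Pearson's r of 0.93 for miR-206 and 0.94 for miR-133b. Between arms of different hairpins r ran from 0.70 to 0.82. For comparison, the median over all 1176 pairs of listed miRNAs was 0.15, and the medians with the 45 other miRNAs were 0.22 for miR-206-3p, 0.22 for miR-206-5p, 0.40 for miR-133b-3p and 0.32 for miR-133b-5p. Each r is over 6 deviations that share library totals and sum to 0 within a group, and it is given as a description.

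**Figure D5:**
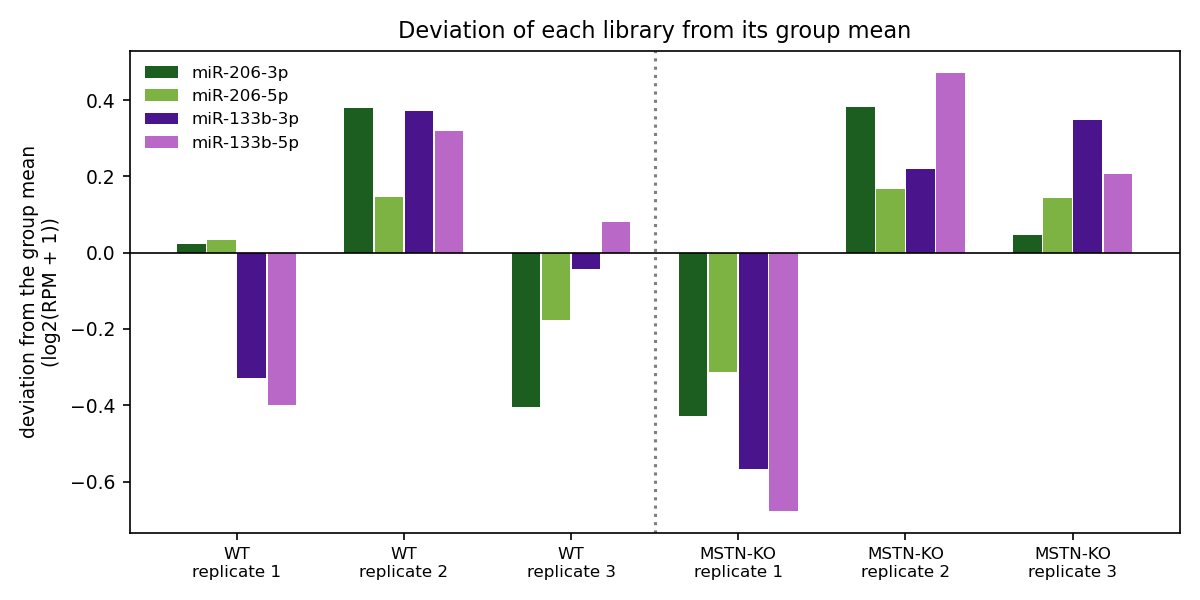
Deviation of each library from the mean of its group (log2(RPM + 1), y axis) for the 4 arms. MSTN-KO replicate 1 lies below the group mean for all 4 arms, and WT replicate 2 and MSTN-KO replicates 2 and 3 lie above it.

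The spread of 3 of the 4 arms was above the median of the list. The SD of log2(RPM + 1) was 0.39 in WT and 0.41 in MSTN-KO for miR-206-3p, 0.35 and 0.49 for miR-133b-3p, and 0.37 and 0.60 for miR-133b-5p. The medians over all 49 miRNAs were 0.25 and 0.30. miR-206-5p was under both medians, with 0.16 and 0.27.

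By the SD of the log2 ratio of RPM + 1 over the 6 libraries, the miRNAs nearest to miR-206-3p were miR-499-5p (0.18), miR-1933-3p (0.22) and miR-486a-5p (0.25). For miR-133b-3p they were miR-133a-3p (0.16), miR-1933-3p (0.20) and miR-486a-5p (0.22). Adding 1 to the RPM compresses the changes of miR-499-5p, with 1 to 47 reads per library. Its MSTN-KO mean RPM was 16.3% of its WT mean, against 34.1% for miR-206-3p, so their ratio in RPM was not constant. By the same measure miR-206-5p stood at 0.33 from miR-206-3p and at 0.25 from miR-133b-3p.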

How the data were processed

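Small RNA of 3 WT and 3 MSTN-KO libraries was sequenced by the authors on an Illumina HiSeq instrument. The deposited values are RPM, made by the authors, 1 per miRNA and library, although the study's methods speak of FPKM. All values above 0 were whole multiples of 1 step per library (within 0.01), which was taken as 1 read, so no length entered. The submitters' processing notes name Bowtie 0.12.2 and mm8. The counting tool, miRNA catalogue and filters are not given in the sources used here. Coordinates are those of GENCODE M21 and RefSeq on GRCm38, and 32 of 49 listed miRNAs, with all 4 arms, had a sequence in the RefSeq table.

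log2(RPM + 1) was tested over all 49 miRNAs with limma 3.58.1 (R 4.3.3, lmFit and eBayes, two-sided, Benjamini-Hochberg over 49), without covariates, after a filter of 1 RPM in at least 1 library. Ratios and shares used exact permutation tests (scipy 1.17.1). The fit was tested on simulated data in which most miRNAs did not change, so that test does not cover a selected list like this one. Alternatives were pseudocounts of 0.1 and 10, no filter or a mean of 10 RPM, 4 rescalings, limma with a mean-variance trend, the replicate number as a block, identical rows counted once and each library left out. Low values per library were too few for a count model. The reads carry no molecular identifiers and so are no independent molecules. Wilson intervals and floors (3 reads) cover counting error only. The miRNAs named are the 4 arms, listed arms of 9 other muscle miRNA families and the 3 miRNAs with the steadiest ratio of RPM + 1 to each main arm. Members and lists were chosen with earlier results of these data known. The 49 miRNAs are a selection and no unselected background.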

Additional observations from a re-analysis of the deposited data

How the results depend on the processing

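The fold changes of miR-206-3p, miR-206-5p and miR-133b-3p depended on the library totals of the authors. Under median-of-ratios scaling they were -0.42, -0.0525 and -0.028, and scaled to the listed total -0.12, 0.21 and 0.27. Quantile normalization gave 0, -0.092 and -0.17. None of these values passed the adjusted threshold of 0.05 in limma. For miR-206-3p the 0 was fixed by the method, because it was the most abundant listed miRNA in each library. Quantile normalization gives the top miRNA the same value in all libraries, so it cannot test this arm. Scaling to the listed total can hardly test it either, because miR-206-3p makes up most of that total. Scaled to the listed total without the 4 arms, miR-133b-3p was at -0.48 and did not pass. The count of downregulated arms was 1 under each of the first 3 rescalings, 3 under the last, and 2 with a mean of at least 10 RPM, which both 5p arms missed. Over all 49 miRNAs, 12, 10, 12 and 22 were lower at an adjusted p-value under 0.05 (limma) with median-of-ratios scaling, the listed total, quantile normalization and the listed total without the arms, against 35 as deposited. The cause was not tested. Pseudocounts of 0.1 and 10 gave miR-133b-5p -2.63 and -0.82 and miR-206-5p -1.18 and -0.52.

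Leaving out each library in turn gave -1.75 to -1.34 for miR-206-3p, -1.14 to -0.90 for miR-206-5p, -1.33 to -0.87 for miR-133b-3p and -2.34 to -1.77 for miR-133b-5p, all 4 with an adjusted p-value under 0.05 (limma) each time. At that threshold, 34 or 35 listed miRNAs were lower and 14 higher in each of these runs. Nearly the whole list thus passed each time, and the passes say little about these arms in particular. All ratio and share differences kept their sign, also with identical rows counted once. Same-numbered libraries had deviations that correlated by 0.0047, 0.22 and 0.056, so the numbers were not taken as pairs. With the replicate block, the log2 fold changes were -1.55, -1.05, -1.15 and -2.11 as without it, and it changed no call (largest adjusted p = 0.00317, limma). Among the listed miRNAs, 35 were lower and 14 higher at the threshold with the block, the same counts as without it. For ratios and shares the block allows no p below 0.25. Depth limits miR-133b-5p most, with 4 reads in MSTN-KO replicate 1.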
